A study of Homo sapiens with 2 samples.

Results

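The SLC25 genes encode the mitochondrial carrier family, and the 47 rows of the deposited table whose gene name is SLC25A followed by digits alone were taken as its members, out of 21262 rows in all, of which 16802 carry a gene name. RNA was co-immunoprecipitated with 2 μg of anti-LRPPRC antibody from lysates of wild-type A549 cells, an established human lung adenocarcinoma line, and sequenced as 2 libraries of this 1 condition, LRPPRC RIP replicate 1 and replicate 2. The series description calls the replicates technical whereas the paper calls them biological, so differences between them may reflect only technical variation. Values are FPKM, fragments divided by transcript length and by library size, which sum to 196627 in replicate 1 and 194839 in replicate 2 and do not give the sequencing depth. No input or IgG library was used here, so a high FPKM is a high level in the precipitate and says nothing of enrichment over the cell's RNA. With 1 condition no test between conditions was possible, and all values below are descriptions of these libraries.

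Mitochondrial carriers are small membrane proteins, nearly all in the inner membrane, that exchange nucleotides, phosphate, carboxylates, amino acids and cofactors between the cytosol and the matrix. They are encoded by nuclear genes, made on cytosolic ribosomes and imported through the TIM22 pathway. A carrier is built of repeats that each carry a short signature, a proline, then an acidic and then a basic residue at fixed spacing. LRPPRC itself is known as a protein that binds and stabilises mitochondrially encoded mRNAs inside mitochondria, and it is also found outside them, so carrier mRNAs are not the mitochondrial transcripts for which it is best known.

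Coding bases of the first signature are shown for the 4 adenine nucleotide carriers, for SLC25A13 and for a further pair of carriers with a high and a low member, because likeness between members bears on which gene a read is assigned to. Each run is 30 bases of the canonical GENCODE 44 transcript on GRCh38, 5′ to 3′, and capitals mark the codons of the proline, the acidic residue and the basic residue.
SLC25A5: CCCatcGAGcgggtcAAGctgctgctgcag
SLC25A6: CCGatcGAGcgggtcAAGctgctgctgcag
SLC25A4: CCCatcGAGagggtcAAActgctgctgcag
SLC25A31: CCCatcGAGcgggtgAAGctgctgctgcag
SLC25A13: CCTatcGATcttgtaAAAactcgaatgcag
SLC25A36: CCActgGAAgttgtaAAAacacgactgcag
SLC25A33: CCActaGAAgtcattAAGacacggttgcag

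The SLC25A5 run lies at chrX:119468597-119468626 on the plus strand, and those of SLC25A6, SLC25A4 and SLC25A31 differ from it in 1, 2 and 1 of the 30 bases. The SLC25A13 run lies at chr7:96184383-96184412 on the minus strand. The SLC25A33 run differs from that of SLC25A36, at chr3:140956561-140956590 on the plus strand, in 7 bases. Over the whole coding sequence the adenine nucleotide carriers were less alike, with 78.7% identity between SLC25A5 and SLC25A6 and 77.2% between SLC25A5 and SLC25A4. The signature, searched in the translated coding sequence as proline, any residue, aspartate or glutamate, any 2 residues, lysine or arginine, occurred 3 times in 26 of the 47 members. It occurred more than 3 times in 3 members, 1 or 2 times in 14, and not in SLC25A46, SLC25A51, SLC25A52 and SLC25A53.

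SLC25 mRNAs were spread over the whole range of levels in LRPPRC RIP. The paper lists potential LRPPRC-binding RNAs above 30 FPKM. The mean FPKM was above 30 for 5 of 47 members (10.6%), against 8.45% of the 16802 named rows. It was at least 1 for 31 members (66.0%), against 63.3% of named rows. Both shares were near those of all named genes. The median of the 47 members was 2.32 FPKM, against 2.47 for named rows, and their quartiles were 0.653 and 15.4 FPKM, against 0.283 and 9.45 for named rows. Of the other members, 12 had a mean from 5 to 30 FPKM, 14 from 1 to 5, 11 from 0.1 to 1, and 5 were below 0.1. The family accounted for 0.358% of all FPKM in replicate 1 and for 0.348% in replicate 2.

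**Figure D1:**
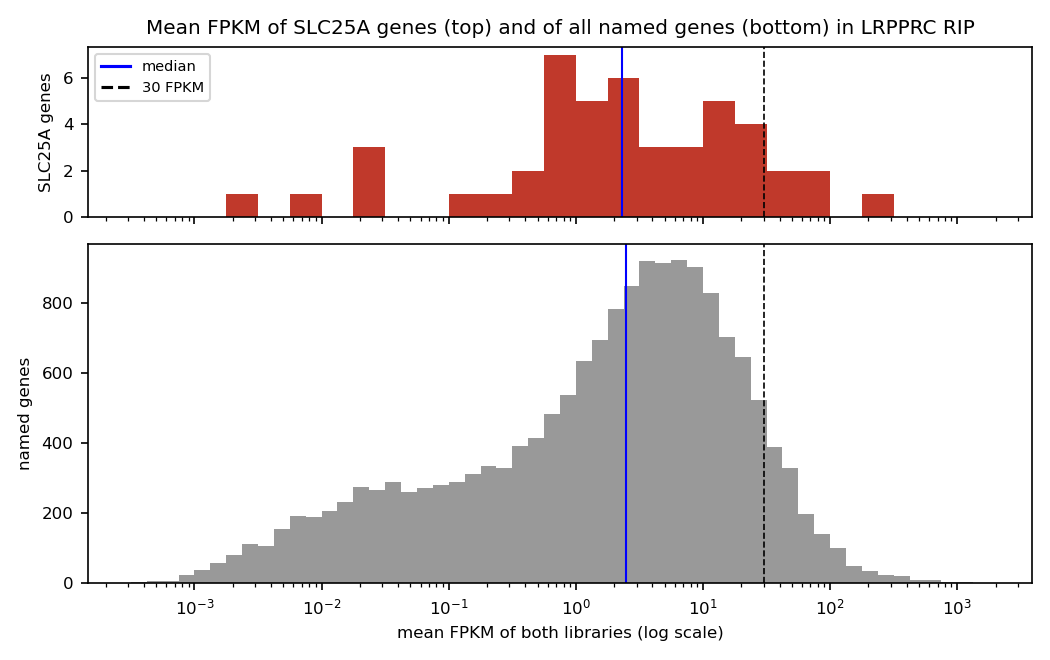
Mean FPKM of both LRPPRC RIP libraries (x axis, log scale) for the 47 SLC25A genes (top, number of genes) and for the named genes with a mean above 0 (bottom, number of genes). The blue lines are the medians, 2.32 FPKM for SLC25A genes and 2.47 for named genes, and the dashed line is 30 FPKM, which 5 SLC25A genes exceed.

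The adenine nucleotide carriers, which exchange matrix ATP for cytosolic ADP, held the highest place of the family and, by mean FPKM alone, the lowest. SLC25A5 (ANT2), the isoform typical of proliferating cells, had 271 FPKM in replicate 1 and 251 in replicate 2, rank 61 of the 16802 named rows. SLC25A6 (ANT3), the widely expressed isoform, had 81.6 and 81.1 FPKM. SLC25A4 (ANT1), the isoform of heart and skeletal muscle, had 0.651 and 0.652 FPKM. SLC25A31 (ANT4), the testis isoform, was listed at 0 in replicate 1 and had 0.00605 FPKM in replicate 2. Its libraries overlapped those of SLC25A47, at 0.00972 and 0.00511 FPKM, so the lowest place is not settled. In both libraries SLC25A5 was above SLC25A6, by 3.33 and 3.09 times, and above SLC25A4, by 417 and 385 times. SLC25A5 alone gave 38.5% (replicate 1) and 37.0% (replicate 2) of the FPKM summed over the family, and the 4 adenine nucleotide carriers together gave 49.6% of the mean sum.

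SLC25A5 lies on chromosome X of GRCh38 from 119468422 to 119471396, and the canonical transcript has 4 exons and 1307 bases, of which 894 are coding. GENCODE 44 names 9 pseudogenes of it, and the closest genomic copy of its coding sequence, on chromosome 7 from 32471513 to 32472406, was 93.6% identical over 894 bases. An antisense gene, SLC25A5-AS1, overlaps 183 bases of the transcript on the opposite strand. SLC25A6 lies in the pseudoautosomal region, on chromosome X from 1386152 to 1392113, and is annotated at the same positions on Y. How reads were assigned between X and Y was not tested, so the level of SLC25A6 and its ratios are subject to that limit. GENCODE names 6 pseudogenes of SLC25A6. The 43 pseudogenes that GENCODE 44 names after a member had no row under that name among those used here. Whether reads of such copies entered the values of their parent genes was not tested.

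Among carriers of aspartate and glutamate, SLC25A13 (citrin or AGC2), which exports aspartate for glutamate in the malate-aspartate shuttle, was the third member of the family, with 58.7 FPKM in replicate 1 and 58.5 in replicate 2. SLC25A12 (aralar or AGC1), the isoform typical of brain and muscle, had 4.42 and 4.47 FPKM. The libraries of this pair did not overlap, and SLC25A13 was 13.3 and 13.1 times higher. SLC25A13 lies on chromosome 7 from 96120220 to 96322147 and has 18 exons and a coding sequence of 2025 bases, close to the longest of the family, 2034 bases in SLC25A12. The glutamate carrier SLC25A22 had 2.36 and 2.29 FPKM, above the related SLC25A18, at 0.430 and 0.490.

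SLC25A36, a carrier of pyrimidine nucleotides, had 35.4 FPKM in replicate 1 and 35.8 in replicate 2, whereas the related SLC25A33 had 0.714 and 0.593. SLC25A36 lies on chromosome 3 from 140941830 to 140980995, and 4545 of the 5697 bases of its canonical transcript are 3′ UTR. The value of SLC25A33 is uncertain, because its whole coding sequence of 963 bases has a continuous copy of 99.3% identity on chromosome 11 from 49433476 to 49434438, annotated as a processed pseudogene, which was not analysed here. The ratio of the pair, 49.5 in replicate 1 and 60.4 in replicate 2, is subject to that limit.

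Among the carriers of cofactors, SLC25A32, which carries folate and FAD, was the fifth member, with 32.5 FPKM in replicate 1 and 32.2 in replicate 2, above 30 in both libraries. It lies on chromosome 8 from 103398635 to 103415189 on the minus strand. DCAF13 overlaps 324 bases of its transcript on the opposite strand and had 3.73 and 5.87 FPKM. A protein-coding gene without a symbol shares 2547 bases of the SLC25A32 transcript, 88.1% of it, on the same strand in GENCODE 44. How reads were shared with that gene was not tested, so the place of SLC25A32 above 30 FPKM is subject to that limit. SLC25A51, the importer of NAD+, had 19.2 and 19.4 FPKM. SLC25A17, a carrier of peroxisomes, had 3.13 and 3.01 FPKM, SLC25A16, linked to coenzyme A, 1.52 and 1.52, and SLC25A26, which carries S-adenosylmethionine, a mean of 1.23 ± 0.106 (SD, n = 2). SLC25A42, a carrier of coenzyme A, had 0.629 and 0.658 FPKM. SLC25A52, which is 97.6% identical to SLC25A51 over the coding sequence of 891 bases, had 0.385 and 0.308 FPKM. A processed pseudogene, SLC25A51P3, is also 95.1% identical to SLC25A51 over 891 bases. How reads were shared among SLC25A51, SLC25A52 and this copy was not tested. The value of SLC25A51 and its ratio to SLC25A52, 49.8 and 62.9, therefore rest on the authors' alignment.

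**Figure D2:**
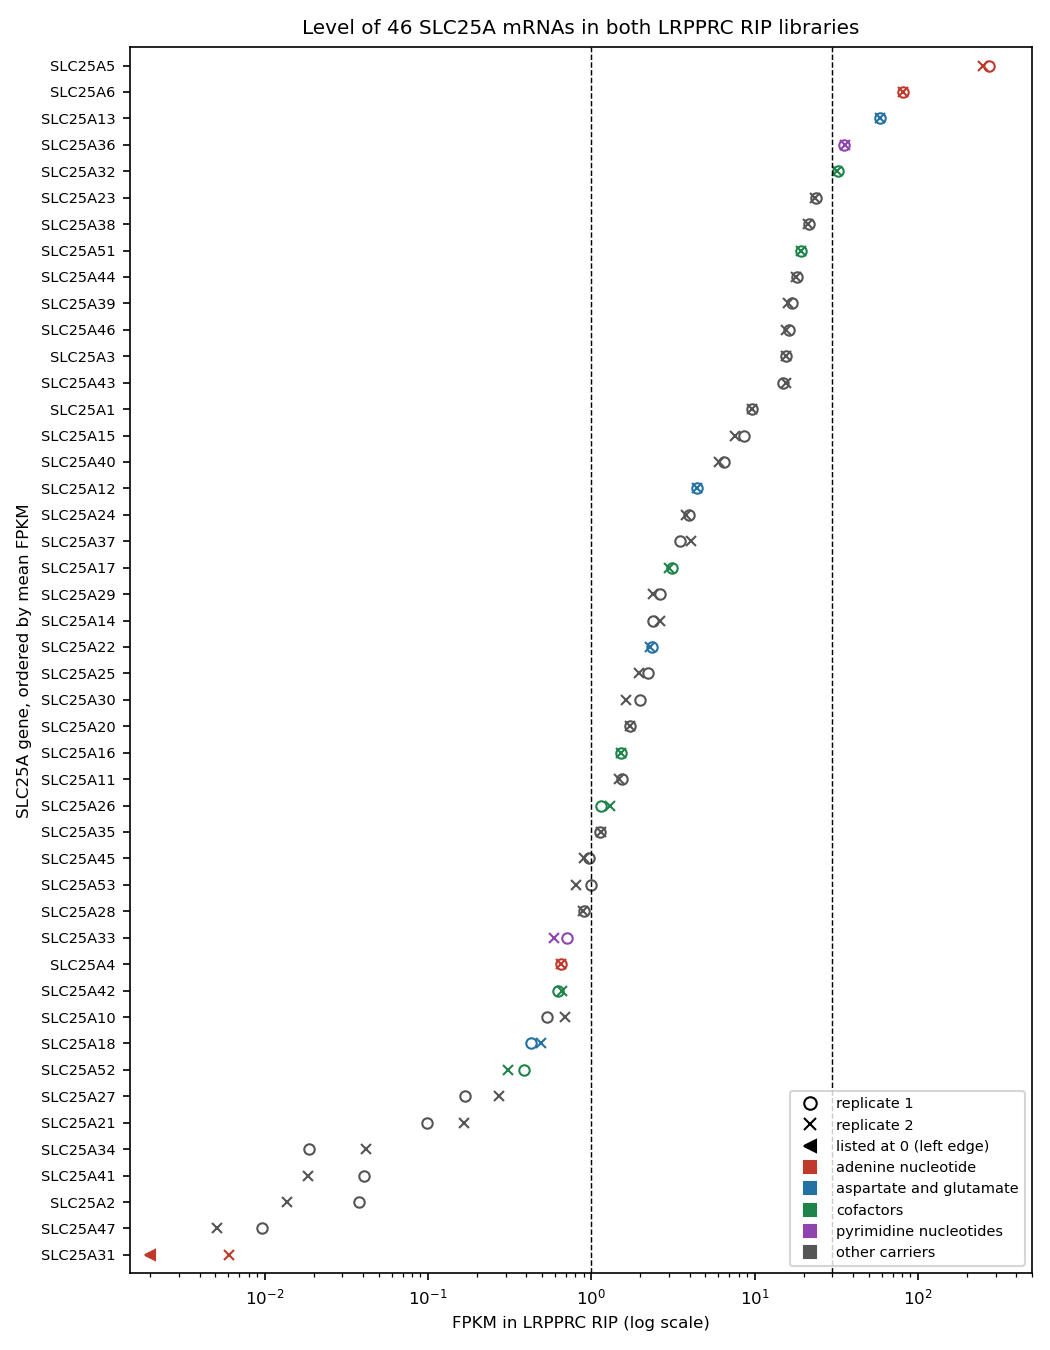
FPKM in LRPPRC RIP (x axis, log scale) of 46 of the 47 SLC25A genes, ordered by mean (y axis), with circles for replicate 1, crosses for replicate 2 and a triangle at the left edge for a value listed at 0. Dashed lines mark 1 and 30 FPKM, and SLC25A5, SLC25A6, SLC25A13, SLC25A36 and SLC25A32 lie above 30 in both libraries.

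The next members below 30 FPKM were 4 with means from 18.2 to 23.6. SLC25A23, a calcium-regulated carrier of ATP-Mg and phosphate, had 23.9 FPKM in replicate 1 and 23.3 in replicate 2. SLC25A38, the glycine carrier needed for heme synthesis, had 21.6 and 21.2. SLC25A44, known in mouse brown fat as a carrier of branched-chain amino acids, had 18.3 and 18.0. These and SLC25A51 were separated from each other and from their neighbours in the order, as their libraries did not overlap. The next were SLC25A39, a glutathione carrier, at 17.1 and 16.0 FPKM, SLC25A46, an outer membrane protein of mitochondrial dynamics, at 16.2 and 15.5, SLC25A3, the phosphate carrier that feeds ATP synthase, at 15.6 and 15.5, and SLC25A43, whose substrate is not known, at 14.9 and 15.5. Among these 4, each overlapped the next in the order, so neighbours were not told apart by level. Of the 46 pairs of neighbours in the whole order, 16 overlapped between libraries and 30 did not.

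Of the 4 di- and tricarboxylate carriers, 2 had a mean of at least 1 FPKM and 0 were above 30, a level that 8.45% of named rows passed. SLC25A1, the citrate carrier that supplies cytosolic acetyl-CoA, had 9.60 and 9.68 FPKM, above the upper quartile of named rows. SLC25A11, the oxoglutarate carrier of the malate-aspartate shuttle, had 1.55 and 1.47, SLC25A10, the dicarboxylate carrier, which shares 1221 bases of its transcript with a gene without a symbol on the same strand, had 0.534 and 0.688, and SLC25A21, the oxodicarboxylate carrier, had 0.0983 and 0.166. Their median was 1.06 FPKM. In SLC25A21, 1442 bases of the canonical transcript, 37.0% of it, are overlapped on the opposite strand by exons of PAX9. PAX9 had 0.794 and 0.711 FPKM, above SLC25A21, and how reads of the overlap were assigned was not tested.

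The carriers of basic, neutral and branched amino acids and of carnitine spanned a wide range. SLC25A15, the ornithine carrier of the urea cycle, had 8.64 FPKM in replicate 1 and 7.58 in replicate 2. Its paralog SLC25A2, which has a single-exon gene and 87.6% identity over the coding sequence, had 0.0376 and 0.0137. At such a level the libraries differed by 2.75 times, and the ratio of SLC25A15 to SLC25A2 was 230 in replicate 1 and 554 in replicate 2. SLC25A29, a carrier of basic amino acids, had 2.65 and 2.40 FPKM, and SLC25A20, the carnitine-acylcarnitine carrier of fatty acid oxidation, had 1.74 and 1.74.

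Iron and glutathione carriers were measured in pairs. SLC25A28 (mitoferrin-2), the widely expressed iron carrier, had 0.901 and 0.894 FPKM, below SLC25A37 (mitoferrin-1), best known from erythroid cells, at 3.52 and 4.11. The ratio of SLC25A28 to SLC25A37 was 0.256 in replicate 1 and 0.218 in replicate 2. SLC25A39 was above the related SLC25A40, at 6.47 and 6.06 FPKM, with a ratio of 2.64 in both libraries. This ratio rested on the division by length, because SLC25A40 has a canonical transcript of 4056 bases and SLC25A39 one of 1581. With FPKM multiplied by transcript length the ratio was 1.03.

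Among the calcium-regulated carriers of ATP-Mg and phosphate, SLC25A24, at 3.98 FPKM in replicate 1 and 3.79 in replicate 2, was 1.78 and 1.93 times SLC25A25, at 2.24 and 1.96, and 0.166 and 0.163 times SLC25A23. The fourth, SLC25A41, had 0.0409 and 0.0184 FPKM. SLC25A41 is the neighbour of SLC25A23 on chromosome 19, with 2299 bases between them, and SLC25A23 was 586 and 1268 times higher in replicates 1 and 2. On chromosome 14, SLC25A29 and SLC25A47, a liver carrier at 0.00972 and 0.00511 FPKM, lie 16791 bases apart. On chromosome X, 13943 bases separate SLC25A43 from SLC25A5, which was 18.3 and 16.2 times higher. With FPKM multiplied by transcript length, the ratio of means was 1810 in place of 798 for SLC25A23 to SLC25A41 and 8.96 in place of 17.2 for SLC25A5 to SLC25A43. The libraries did not overlap in these 3 pairs, which was so for 98.1% of all 1081 pairs of members. The pairs were found after the values were seen. SLC25A41 and SLC25A47 differed by 2.22 and 1.90 times between libraries, so the ratios to them are uncertain.

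In all 13 pairs of related carriers the libraries of the higher and the lower gene did not overlap, which was so for 98.1% of the 1081 pairs that the 47 members can form. The 13 pairs share genes, with SLC25A5, SLC25A6, SLC25A4 and SLC25A24 in 2 pairs each, so they are not independent. With FPKM multiplied by transcript length no pair changed direction, but 5 ratios of means moved by more than 1.5 times. These were SLC25A5 to SLC25A4 (119 in place of 401), SLC25A6 to SLC25A4 (41.0 in place of 125), SLC25A15 to SLC25A2 (854 in place of 316), SLC25A28 to SLC25A37 (0.0769 in place of 0.235) and SLC25A39 to SLC25A40.

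**Figure D3:**
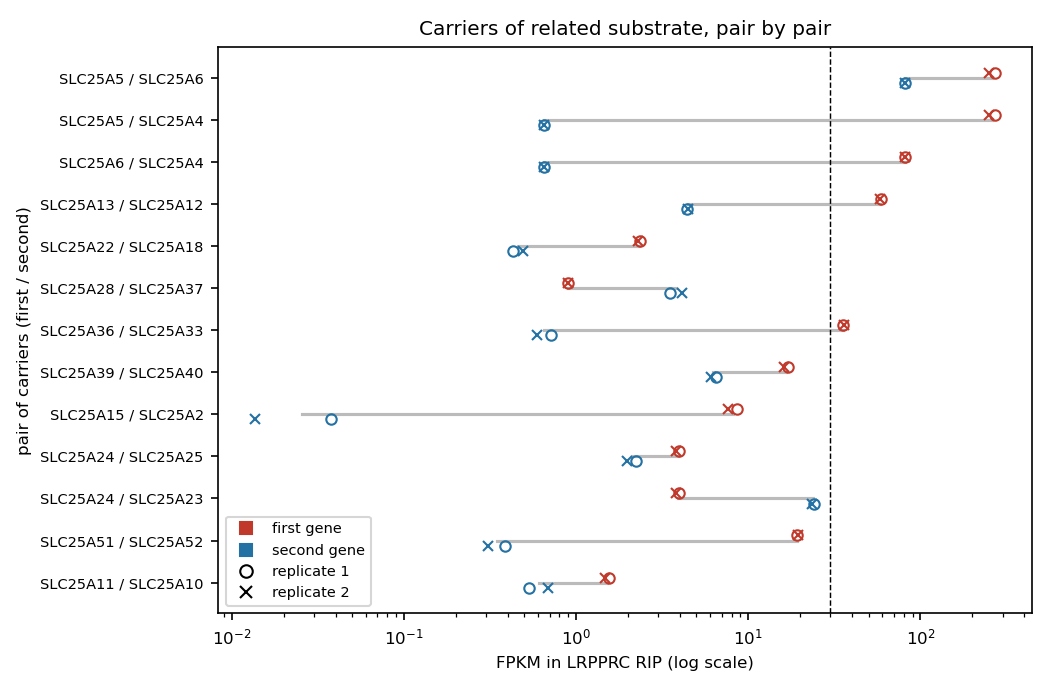
FPKM in LRPPRC RIP (x axis, log scale) of 13 pairs of related carriers (y axis), with the first gene in red, the second in blue, circles for replicate 1 and crosses for replicate 2. Grey lines join the means of a pair, the dashed line is 30 FPKM, and the longest lines join SLC25A5 to SLC25A4 and SLC25A15 to SLC25A2.

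The UCP-like carriers SLC25A14, SLC25A30 and SLC25A27, named for their likeness to uncoupling proteins, had a median of 1.81 FPKM. SLC25A14 had 2.38 and 2.63 FPKM, on either side of the median of named rows, SLC25A30 had 2.00 and 1.63, and the largely neuronal SLC25A27 had 0.168 and 0.273. Of the members without an assigned substrate, SLC25A35 had 1.13 and 1.15 FPKM, SLC25A45 0.969 and 0.905, SLC25A53 a mean of 0.903 ± 0.139 (SD, n = 2), and SLC25A34 0.0187 and 0.0417. The coding sequence of SLC25A53 has a copy of 95.8% identity over 921 bases elsewhere on chromosome X, SLC25A53P1, so its value is uncertain.

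Levels of SLC25A mRNAs were close between the libraries. Over the 31 members with a mean of at least 1 FPKM, the median absolute difference on the log2(FPKM + 1) scale was 0.04, against 0.06 for the 10639 named rows with such a mean. None of the 31 differed by more than 1.5 times, against 2.07% of those named rows, and the largest coefficient of variation was 14.6%, in SLC25A30. Across these genes, which are not independent replicates, the libraries correlated with a Pearson r of 0.999 on that scale and a Spearman rho of 0.997. Replicate 1 was the higher library for 20 of the 31 members (64.5%), against 56.1% of named rows. Of the 16 members below 1 FPKM, 1 was listed at 0 in a library and 6 differed by more than 1.5 times. These 6 were SLC25A27, SLC25A21, SLC25A34, SLC25A41, SLC25A2 and SLC25A47, so the order of the lowest members is uncertain. The share of named rows below 1 FPKM that differed by as much was not computed, so the 6 cannot be called unusual.

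Length, base composition and number of exons were weakly correlated with the level of the members. Over the 31 members at 1 FPKM or more, Spearman's rho with mean FPKM was -0.08 for transcript length, -0.08 for 3′ UTR length, 0.12 for coding length, -0.08 for GC content and -0.28 for the number of exons. These are correlations across genes of the same libraries, and FPKM is itself divided by length. Canonical transcripts of the 47 members ranged from 1171 to 6581 bases. FPKM multiplied by this length approximates the share of fragments only if reads come from the canonical transcript, which was not tested. By this product the same 5 genes led, in the order SLC25A5, SLC25A36, SLC25A13, SLC25A6 and SLC25A32, and SLC25A3 moved to place 6. The lengths come from a later annotation than the one the authors used.

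**Figure D4:**
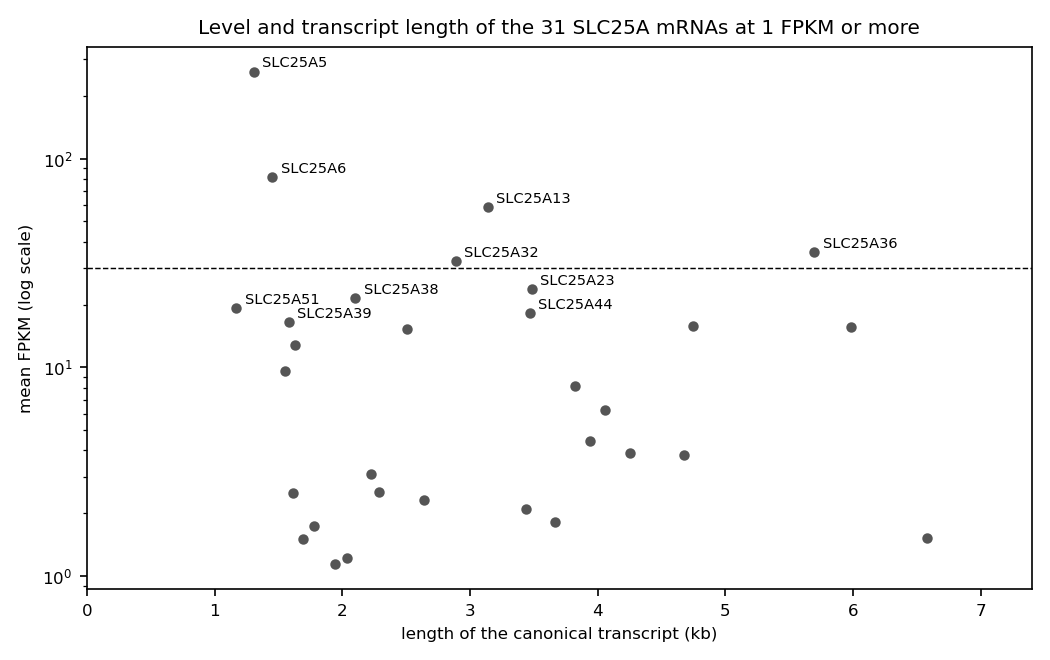
Mean FPKM in LRPPRC RIP (y axis, log scale) against the length of the canonical transcript in kb (x axis) for the 31 SLC25A genes at 1 FPKM or more, each a point, with the 10 highest named. The dashed line is 30 FPKM, and genes above it have transcripts from 1.31 kb (SLC25A5) to 5.70 kb (SLC25A36).

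Other genes of mitochondrial transport were taken from 3 lists, in each of which 1 gene had a mean above 30 FPKM, a level that 8.45% of named rows passed. The mean was at least 1 FPKM for 13 of 13 genes for the import of carriers, for 9 of 10 other carriers and pores and for 3 of 5 family members with other symbols, against 63.3% of named rows. Of the 5 family members with other symbols, MTCH1, an outer membrane protein, had 34.8 and 32.8 FPKM, its relative MTCH2 had 21.2 and 21.2, and the uncoupling protein UCP2 had 13.1 and 13.5. UCP3 had 0.0255 and 0.0284, and UCP1, the brown fat protein, had 0.00444 FPKM in replicate 1 and was listed at 0 in replicate 2. Of the 10 other carriers and pores, the one above 30 was the outer membrane channel VDAC1, at 32.7 and 33.5 FPKM, and the median was 5.16. The import genes had means from 1.08 to 32.5 FPKM, and the one above 30 was the receptor TOMM70, at 28.8 and 36.1 FPKM, which was below 30 in replicate 1. TIMM22, the channel through which carriers enter the inner membrane, had 14.1 and 13.2 FPKM, and the median of this list was 4.67.

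The labelled cell line was checked against its markers. KRT8 and KRT18, keratins of simple epithelium, had means of 337 and 51.1 FPKM and KRT19 had 12.1. The A549-typical enzymes AKR1B10 and ALDH1A1 had 32.2 and 76.4, AKR1C1 had 7.66, and AKR1C3 had 96.2 FPKM in replicate 1 and 93.8 in replicate 2. EPCAM, at 0.430 FPKM, and CDH1, at 1.33, were low. Markers of blood, fibroblasts and endothelium ranged from 0.0402 to 1.36 FPKM, and PTPRC and CD3E were not analysed here.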

How the data were processed

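The authors deposited FPKM values per gene for each of the 2 LRPPRC RIP libraries. According to the study's methods and the submitters' processing notes, adapters were removed with cutadapt 1.18, reads were aligned to GRCh38 with HISAT2 2.1.0, and levels were quantified with StringTie 1.3.3b against an Ensembl annotation, after a stranded total RNA library kit. Settings for reads with several genomic positions and for strand are not given in the sources used here. The depth is unknown: of 5405 genes below 0.3 FPKM, at most 1.30% shared a ratio of the libraries within 0.02 on the log2 scale, so no whole reads were recovered.

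Means, SDs, ranks and ratios were computed from the deposited values (Python 3.11.15, pandas 2.3.3, scipy 1.17.1). Only the counts past thresholds, the median and the share of the 3 highest members were tested on simulated data. Transcript models are the canonical ones of GENCODE 44 on GRCh38. Copies of coding sequences were searched in that genome with blastn 2.17.0 (at least 95% identity over at least 100 bases). Such a copy was found for 5 members, not counting the Y positions of SLC25A6. Coding sequences of pairs were aligned with biopython 1.88, and identity is given over the longer one. Exons of other genes overlapped 20 members, 18 of them on the opposite strand. Named are all members but 1, which is not reported here but counts in the totals, with values in full for those above 30 FPKM, the next 5, related pairs, and members that differ between libraries or are listed at 0. The members, lists and pairs were chosen with earlier results of these data known. SLC25A48 was not analysed here.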

Additional observations from a re-analysis of the deposited data

How the results depend on the processing

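The number of SLC25A genes above 30 FPKM was 5 in both libraries, in either library and without replicate 1 or replicate 2. It was 7 at 20 FPKM and 3 at 50 FPKM, because the threshold itself differs. The number at or above the minimum was 31 at 1 FPKM, 17 at 5 FPKM and 42 at 0.1 FPKM. The median of the members, 2.32 FPKM, was 8.11 over members of at least 1 FPKM, which drops the low ones, and 2.41 with UCP1, UCP2, UCP3, MTCH1 and MTCH2 added. It was 2.29 to 2.36 with replicate 1 or 2 left out. The 3 highest members held 58.0% of the summed FPKM, and 57.6% to 58.4% with a library left out. Leaving out members with pseudogenes named after them drops SLC25A5, SLC25A6 and SLC25A36, among others. The trio SLC25A13, SLC25A32 and SLC25A23 then held 53.7% of the remaining sum. With FPKM multiplied by transcript length, the trio SLC25A5, SLC25A36 and SLC25A13 held 45.3%. The median absolute log2 difference of the libraries, 0.04, was 0.0529 with a pseudocount of 0.1, 0.0545 with 0.01 and 0.04 over every member. The last value has a pseudocount of 1, which shrinks differences below 1 FPKM, such as the 2.75 times in SLC25A2. It therefore does not show that the low members agree. No ratio of a pair changed direction. Of the 10 highest members, 8 were also among the 10 highest by FPKM multiplied by length. Scaling to TPM multiplies all values by 5.09 in replicate 1 and 5.13 in replicate 2. No paired analysis was possible because both libraries belong to 1 group. The depth is unknown, so the precision of values below 1 FPKM cannot be stated.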
